A study of Mus musculus with 6 samples.

Results

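The 10 genes described here encode the MHC class II antigen presentation machinery, and were taken by symbol from the 23282 genes listed for each library: *H2-Aa*, *H2-Ab1*, *H2-Eb1*, *Cd74*, *H2-DMa*, *H2-DMb1*, *H2-DMb2*, *H2-Oa*, *H2-Ob* and *Ciita*. All 10 were listed. The libraries hold RNA of CD4 T cells from spleen and lymph nodes of WT mice (Prkaa1fl/fl, CD4Cre-negative) and of AMPK KO mice (Prkaa1fl/fl with CD4Cre), with 3 samples in each group. Both groups carried the floxed allele, and in AMPK KO the Cre recombinase is driven by the *Cd4* promoter, so that *Prkaa1*, which encodes the α1 catalytic subunit of AMP-activated protein kinase, is deleted in cells of the T lineage and not in B cells. Mice of the study were 6 to 8 weeks old and female unless otherwise stated. Its methods name C57BL/6J mice but give no background for the Prkaa1fl/fl and CD4Cre lines. The methods give magnetic beads or flow sorting for isolating the T cells. The reporting summary of the study gives magnetic isolation for T cells used in vitro, with their purity measured by flow cytometry afterwards; the purity it states is high but allows a minority of other cells. All 6 samples were rested for 1 h and then received anti-CD3 and anti-CD28 antibodies, each at 2 µg/mL. The labels give 24 h of stimulation, and the methods of the study a shorter time. The labels do not say whether each sample came from its own mouse, so the p-values measure the spread between these samples.

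MHC class II molecules are pairs of an α and a β chain that hold peptides from endocytosed proteins and show them to the receptors of CD4 T cells. B cells, dendritic cells and macrophages express them, and resting or activated mouse T cells do not make them in appreciable amounts. The invariant chain, encoded by *Cd74*, occupies the groove during assembly, H2-DM exchanges its remnant for peptide, H2-O restrains H2-DM, and the coactivator CIITA switches the genes on through a factor assembly at the X and Y boxes of their promoters. The level of these transcripts in a T cell library is therefore a gauge of RNA from antigen-presenting cells. In C57BL/6 mice the E α chain is not transcribed, so the E β chain of *H2-Eb1* is made without its partner.

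Of the 10 genes, 8 lie within 224.3 kb of chromosome 17 (GRCm38, chr17:34092340-34316674). *H2-Oa* lies at chr17:34092340-34095234, *H2-DMa* at chr17:34119541-34139101, *H2-DMb2* at chr17:34143307-34151555, *H2-DMb1* at chr17:34153072-34160230, *H2-Ob* at chr17:34238903-34254414, *H2-Ab1* at chr17:34257689-34269419, *H2-Aa* at chr17:34282744-34287823 and *H2-Eb1* at chr17:34305867-34316674. *Ciita* lies at chr16:10480059-10528418. Promoter windows of 300 bases, from 250 before to 50 after a transcription start (RefSeq, GRCm38.p6), were held for 7 of the 10 genes, in 8 windows, and not for *H2-Ab1*, *Cd74* and *Ciita*. A pattern written after the X box (AG, any 2 bases, AC, any 3 bases, TG) and the letters ATTGG, written after the Y box, were searched on both strands, and these 2 motifs did not overlap in the stretches shown. Of all 32851 windows, 14.8% held the first, 37.4% the second, and 0.377% the first followed on the same strand by the second with 10 to 40 bases between. This arrangement was found for 3 of the 7 genes, *H2-DMb1*, *H2-Ob* and *H2-Eb1*, with 23, 20 and 22 bases between, and for *H2-Eb2* of the same locus, with 22. The stretches below, read 5′ to 3′ along each gene, are shown to set the most abundant gene with a window, *H2-Aa*, beside genes with the arrangement; capitals mark the matched letters. A match is a description of letters and not a measured site. A fixed pattern can also miss a site, so the lack of a match, as for *H2-Aa*, does not show that a box is absent.
H2-Aa, chr17:34287864-34287973, minus strand: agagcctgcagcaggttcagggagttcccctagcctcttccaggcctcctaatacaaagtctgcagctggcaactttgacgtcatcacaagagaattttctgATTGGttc
H2-Eb1, chr17:34305717-34305826, plus strand: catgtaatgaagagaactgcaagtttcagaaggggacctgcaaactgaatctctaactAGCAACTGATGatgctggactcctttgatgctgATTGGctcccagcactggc
H2-Ob, chr17:34238755-34238864, plus strand: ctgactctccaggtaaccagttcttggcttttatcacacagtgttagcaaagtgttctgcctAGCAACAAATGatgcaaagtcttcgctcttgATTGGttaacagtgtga
H2-Eb2, chr17:34325525-34325634, plus strand: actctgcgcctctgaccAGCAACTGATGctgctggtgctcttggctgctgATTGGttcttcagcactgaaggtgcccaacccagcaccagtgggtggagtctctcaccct

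Libraries held 9575096 to 10168121 reads on genes in WT and 10515155 to 11185360 in AMPK KO, recovered from the deposited values. *Rn45s*, the ribosomal RNA precursor, took 20.7% to 24.9% of them in WT and 8.48% to 10.8% in AMPK KO. *Xist*, the transcript of the inactive X chromosome, was read 8 to 32 times per WT library, against 1998 to 2876 times per AMPK KO library. The Y-linked *Ddx3y* had 3158 to 3462 reads and 1296 to 1840, in the same order. These values go against female sex for the WT libraries, and all 3 AMPK KO libraries hold both transcripts. Sex-linked transcripts thus differ with the genotype, and sex and genotype cannot be told apart for any result below. *Prkaa1* was 4.92 ± 0.30 in WT and 4.49 ± 0.36 in AMPK KO on the deposited log2 scale (SD, n = 3), with overlapping groups and an adjusted p of 0.357 in limma. A 3′ library reads near the transcript end and need not cover the deleted part, so this gene does not check the labels here.

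The most abundant class II transcripts were higher in AMPK KO than in WT. The differences were tested with limma over the 11279 genes with a mean log2 value of at least 1, and 9 of the 10 genes passed that filter. *H2-Aa*, *H2-Eb1* and *Cd74* rose, by 1.85-, 1.54- and 1.84-fold, and no member fell. Over all tested genes, 2.54% were called higher and 3.1% lower. Groups did not overlap, with AMPK KO higher, for 4 of the 9 tested members, against 11.6% of all tested genes. The median log2 fold change of the 9 was 0.42, and that of all tested genes 0.02. Fold changes are on the scale of log2(normalized value + 1). Because bulk RNA was measured, fewer cells of a type and less RNA per cell cannot be told apart.

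*H2-Aa* encodes the α chain of the A molecule, the class II molecule at the surface of C57BL/6 cells. On the deposited log2 scale it measured 9.50, 9.77 and 9.16 in WT, against 10.28, 10.54 and 10.27 in AMPK KO. Every AMPK KO sample was above every WT sample. The log2 fold change was 0.89 ± 0.17 (SE; 95% interval 0.53 to 1.24, adjusted p = 0.00707 in limma), and the exact two-sided permutation test of 3 against 3 gave p = 0.1, the smallest it allows. *H2-Ab1*, the β chain that pairs with it, measured 8.79, 8.50 and 8.76 in WT and 9.16, 9.59 and 9.00 in AMPK KO. These groups did not overlap either, but the log2 fold change of 0.56 ± 0.16 (SE; interval 0.22 to 0.91) had an adjusted p of 0.0566 in limma. *H2-Eb1*, the unpaired E β chain, measured 8.97, 8.69 and 8.87 in WT and 9.30, 9.87 and 9.23 in AMPK KO. The log2 fold change of *H2-Eb1* was 0.62 ± 0.17 (SE; interval 0.26 to 0.99, adjusted p = 0.0447 in limma).

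*Cd74*, the invariant chain, measured 9.18, 8.81 and 9.15 in WT and 9.85, 10.54 and 9.40 in AMPK KO. The AMPK KO samples were all above the WT samples and spread widely among themselves, with an SD of 0.57 against 0.20. The log2 fold change was 0.88 ± 0.22 (SE; interval 0.41 to 1.36, adjusted p = 0.0327 in limma). AMPK KO sample 2 was the highest of all 6 libraries for each of *H2-Aa*, *H2-Ab1*, *H2-Eb1* and *Cd74*. The ratio of *Cd74* to *H2-Ab1*, which compares the 2 genes within a library and is not divided by transcript length since each transcript is read at its end, ran from 1.24 to 1.31 in WT and from 1.32 to 1.94 in AMPK KO. The ratio of *H2-Eb1* to *H2-Ab1* was 1.12 ± 0.04 in WT and 1.16 ± 0.05 in AMPK KO (SD, n = 3), and overlapped between the groups. That of *H2-Aa* to *H2-Ab1* was 1.64, 2.41 and 1.32 in WT and 1.94 to 2.41 in AMPK KO, also with overlap. Among the WT libraries, *H2-Aa* was highest in sample 2, where *H2-Ab1*, *H2-Eb1* and *Cd74* were lowest. *H2-Aa* thus did not follow these genes between the WT libraries.

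**Figure D1:**
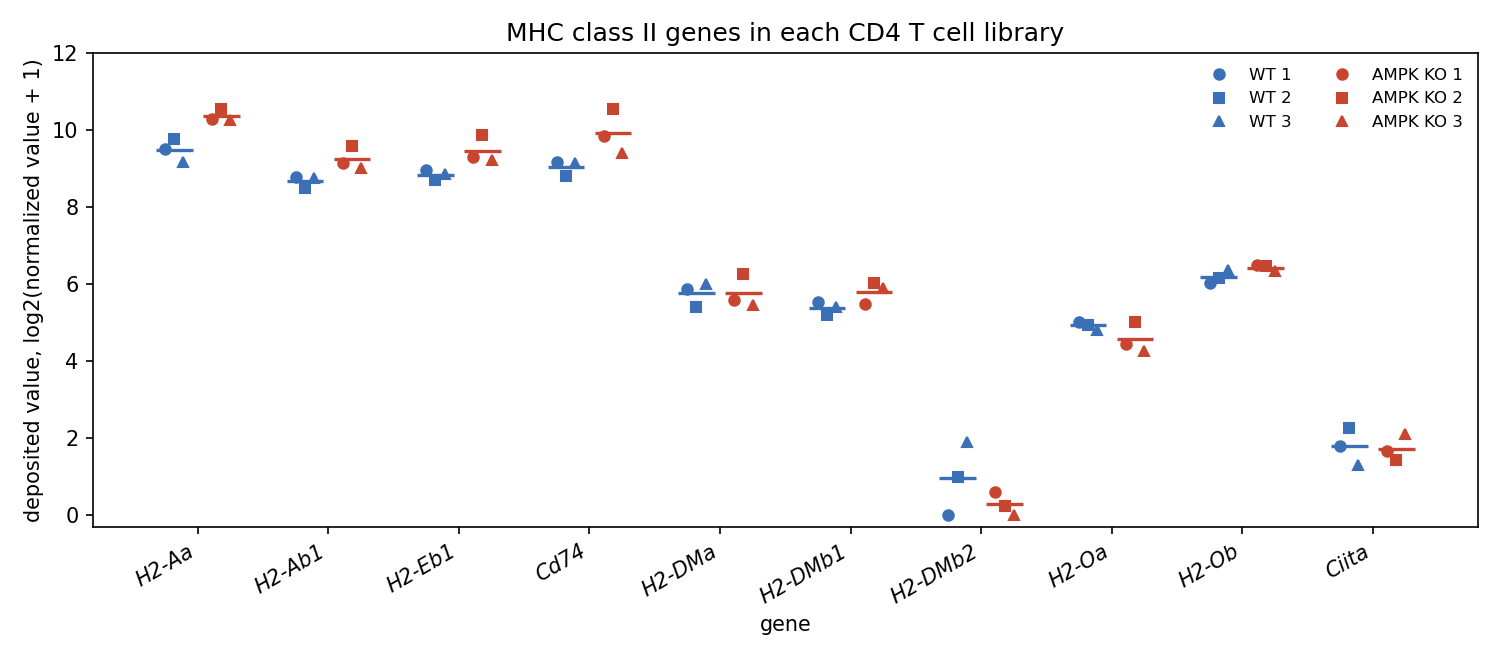
Deposited log2 value (vertical axis) of each of the 10 MHC class II genes in the 3 WT (blue) and 3 AMPK KO (red) libraries; each symbol is a library and each bar a group mean. The AMPK KO points of H2-Aa, H2-Ab1, H2-Eb1 and Cd74 lie above all WT points, and those of the other 6 genes overlap with them.

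The genes of the peptide exchange machinery were at lower levels and did not pass the test. *H2-DMa*, the α chain of H2-DM, measured 5.88, 5.39 and 6.00 in WT and 5.59, 6.27 and 5.46 in AMPK KO. These groups lay across each other, with a log2 fold change of 0.01 (interval -0.48 to 0.51, adjusted p = 0.984 in limma). *H2-DMb1*, a β chain of H2-DM, measured 5.54, 5.21 and 5.41 in WT and 5.47, 6.03 and 5.90 in AMPK KO, with a log2 fold change of 0.42 (interval -0.01 to 0.84, adjusted p = 0.244 in limma). *H2-DMb2*, the other β chain, had 0, 10 and 24 reads in WT and 6, 2 and 0 in AMPK KO and was below the filter. Of the 50-base words in the last 500 bases of *H2-DMb1*, 27.5% also occur in *H2-DMb2*, so the split of reads between the pair is uncertain. The ratio of *H2-DMa* to *H2-Ab1* was 0.113 to 0.146 in WT and 0.0825 to 0.0989 in AMPK KO, without overlap.

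H2-O is expressed mainly in B cells. *H2-Oa*, its α chain, measured 5.02, 4.94 and 4.82 in WT and 4.45, 5.02 and 4.26 in AMPK KO, with a log2 fold change of -0.35 (interval -0.86 to 0.16, adjusted p = 0.434 in limma). The 3′ end of *H2-Oa* lies in 321 exonic bases shared with the antisense gene *BC051537*, and whether the counting used strand is not given in the sources used here, so reads of the 2 cannot be told apart. *H2-Ob*, the β chain, measured 6.03, 6.16 and 6.37 in WT and 6.49, 6.46 and 6.33 in AMPK KO. Its groups overlapped, with a log2 fold change of 0.24 (interval -0.11 to 0.59, adjusted p = 0.426 in limma). *Ciita*, the coactivator, was near the floor, with 23, 38 and 13 reads in WT and 26, 18 and 39 in AMPK KO. Its log2 fold change was -0.06 (interval -0.97 to 0.85, adjusted p = 0.956 in limma), an interval that does not exclude a change of the size seen for *H2-Ab1*.

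**Figure D2:**
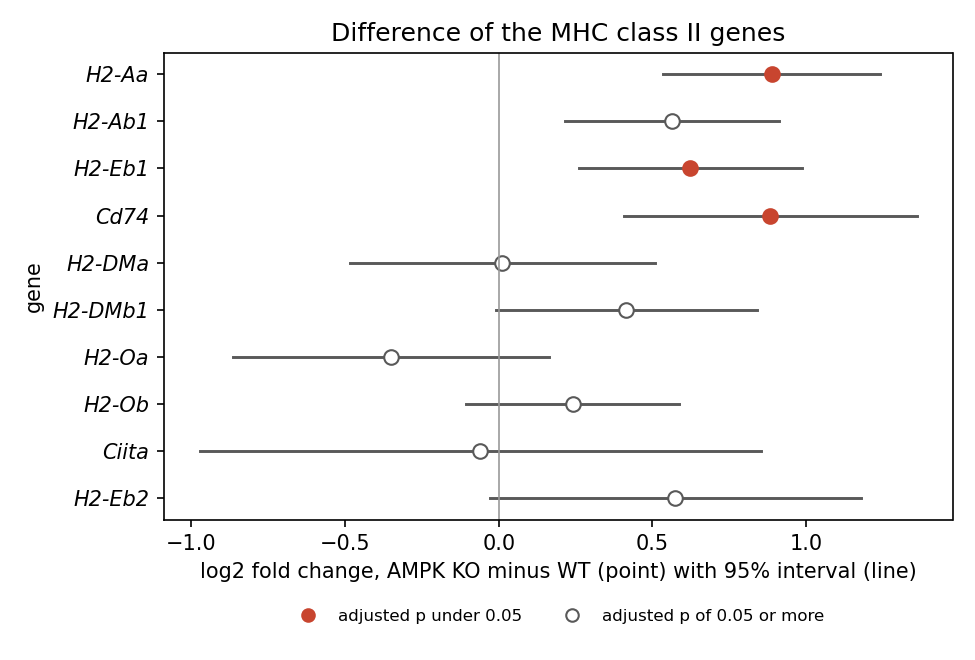
Log2 fold change of AMPK KO over WT (horizontal axis; points) with its 95% interval in limma (lines) for the 9 tested members and H2-Eb2; filled points passed an adjusted p of 0.05. Intervals of H2-Aa, H2-Ab1, H2-Eb1 and Cd74 lie above 0, and those of the others include 0.

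Of the other class II genes of the locus, *H2-Eb2*, a β chain gene next to *H2-Eb1*, was read 67 to 93 times per WT library, against 149 to 162 times per AMPK KO library. The groups did not overlap, but its log2 fold change of 0.57 had an adjusted p of 0.259 in limma. *H2-Ea-ps*, the E α gene, had 0 reads in all 6 libraries. Among the 13 transcription factors of class II genes, 1 rose and none fell, with a median of -0.05. The shares over all tested genes were 2.54% called higher and 3.1% called lower. Unadjusted p in limma was under 0.05 for 3, a share close to the 21.3% of all tested genes. The gene that rose was *Irf1*, an interferon-induced factor that acts on *Ciita*, at 9.10 ± 0.06 in WT and 9.91 ± 0.14 in AMPK KO (SD, n = 3; adjusted p = 0.00336 in limma). *Irf2*, its relative, had a log2 fold change of -0.35 (adjusted p = 0.227 in limma).

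The median log2 fold change of 10 tested genes of antigen processing and trafficking was 0.58. Of these, 5 rose and none fell, against 2.54% called higher and 3.1% called lower of all tested genes. They were *Lgmn*, an asparaginyl endopeptidase (1.85, adjusted p = 0.0119), *Ctsb*, the protease cathepsin B (1.25, adjusted p = 0.000361), *Ifi30*, the lysosomal thiol reductase GILT (1.14, adjusted p = 0.0156), *Ctsz* (0.70, adjusted p = 0.0296) and *Cd83*, which lengthens the life of class II at the surface, all in limma; *Cd83* was named after its value was seen. *Ctss*, the protease that trims the invariant chain, and *Ctsd* had log2 fold changes of 0.13 and 0.22, with adjusted p of 0.67 and 0.508 in limma. Of 5 tested partners on the antigen-presenting cell, 2 rose: *Cd86*, a ligand of CD28, by 1.27 (adjusted p = 0.00212) and *Icam1*, a ligand of LFA-1, by 0.95 (adjusted p = 0.0198 in limma). Whether the processing, partner and *Irf1* transcripts came from antigen-presenting cells or from the T cells was not tested. Without WT sample 1, WT sample 3 or AMPK KO sample 1, 1 of the 5 processing genes and 1 of the 2 partners were called, and without AMPK KO sample 3 also 1 partner. Of the receptors that bind class II, *Cd4* had a log2 fold change of -0.36 (adjusted p = 0.224 in limma), and *Lag3* had 0 to 14 reads in a library and was below the filter.

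Markers of the cells that carry class II did not all move together. The marker lists were chosen with earlier results of these data known. Of 14 tested macrophage and monocyte genes, 9 rose and none fell, with a median of 1.17. Of all tested genes, 2.54% were called higher and 3.1% lower. *Fcgr1*, named after its value was seen, passed the filter only through AMPK KO (mean log2 0.62 in WT and 2.03 in AMPK KO). Its positive log2 fold change enters that median and it was not called. *Cd14*, a receptor for lipopolysaccharide, rose by 1.87 and the complement genes *C1qa*, *C1qb* and *C1qc* by 1.85, 1.50 and 1.51 on the log2 scale (adjusted p from 0.00127 to 0.00465 in limma). *Csf1r*, the receptor for M-CSF, rose by 0.97 (adjusted p = 0.0197) and *Vcam1* by 1.24 (adjusted p = 0.000794 in limma). *C1qb* lost its call without WT sample 1 (adjusted p = 0.0562 in limma). The call of *Csf1r* was lost without any 1 of the WT samples or AMPK KO sample 1 (adjusted p up to 0.105 over the alternatives in limma). Of 14 tested B cell genes, 0 were called in limma, 1 had an unadjusted p under 0.05 (against 21.3% of all tested genes), and the median was 0.08. *Cd72* and *Pou2af1*, the B cell genes with the highest means, had log2 fold changes of 0.05 and 0.14, and the defining marker *Cd79a*, named after its value was seen, of 0.02.

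Of 14 tested dendritic cell genes, 2 rose and 1 fell, with a median of 0.70. Shares over all tested genes, for this list and the T cell list below, were 2.54% called higher and 3.1% called lower. *Ccl17*, named after its value was seen, passed the filter only through AMPK KO (mean log2 0.535 in WT and 1.84 in AMPK KO). Its positive log2 fold change enters that median and it was not called. *Fscn1*, an actin-bundling protein, rose by 1.61 (adjusted p = 0.00314) and *Cst3*, a cysteine protease inhibitor, by 1.21 (adjusted p = 0.01), whereas *Ccr9*, a homing receptor also found on T cells, fell by 1.97 on the log2 scale (adjusted p = 0.00127 in limma). *Cst3* lost its call without WT sample 1, WT sample 3 or AMPK KO sample 1, which left 1 gene called higher (adjusted p of *Cst3* up to 0.0913 in limma). Of 15 T cell genes, 5 fell and 1 rose, with a median of -0.31. *Tcf7* fell by 1.66 (adjusted p = 0.000719), *Cd3g* by 0.93 (0.00579), *Cd3e* by 0.66 (0.0239) and *Cd28* by 0.56 (0.047) on the log2 scale in limma; *Bcl11b* also fell and *Thy1* rose, both named after their values were seen. The number that fell was 1 without WT sample 1, 2 without WT sample 3 or AMPK KO sample 1, 7 without AMPK KO sample 2, and 3 when the third AMPK KO sample was left out. None was called higher in 9 of the 15 alternatives. *Cd2* and *Cd3d*, the most abundant of the list, had log2 fold changes of -0.39 and -0.31 and did not pass the test. Of 12 genes of stroma and endothelium, 2 were tested and 0 called in limma, 1 of them with an unadjusted p under 0.05, a level that 21.3% of all tested genes passed. *Pecam1* had a log2 fold change of -0.60 (adjusted p = 0.0514) and *Kdr*, with 0 to 31 reads in a library, of 0.02 (adjusted p = 0.989 in limma).

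The summed normalized value of the 10 class II genes was 2445, 2278 and 2255 in WT and 3563, 4938 and 3225 in AMPK KO. All AMPK KO sums were above the WT sums, and sample 2 was again highest. The sum made up 0.222% ± 0.012 of all normalized values in WT and 0.410% ± 0.084 in AMPK KO (SD, n = 3), and *H2-Aa*, *H2-Ab1*, *H2-Eb1* and *Cd74* gave 91.4% and 94.2% of it. The macrophage and monocyte sum ran from 521 to 586 in WT and from 974 to 1787 in AMPK KO, the B cell sum from 492 to 520 and from 492 to 586, and the dendritic cell sum from 205 to 273 and from 280 to 313. The T cell sum ran from 3909 to 4118 in WT and from 3113 to 3629 in AMPK KO. The B cell sums overlapped between the groups, and the others did not. Relative to the T cell sum, the B cell sum was 0.125 to 0.130 in WT and 0.157 to 0.161 in AMPK KO, without overlap. Class II relative to the T cell sum was 0.577 to 0.594 in WT and 1.01 to 1.36 in AMPK KO. The T cell sum was itself lower in AMPK KO and holds genes that were called, so these ratios also move with their denominator. *Ccr9*, which fell, made up 89.0 of the mean dendritic cell sum in WT and 22.8 in AMPK KO. Without *Ccr9*, an alternative chosen after seeing the data, the mean dendritic cell sum was 1.94 times higher in AMPK KO, against 1.29 times with it. Against the B cell sum, class II was 4.44 to 4.70 in WT and 6.47 to 8.43 in AMPK KO. Against the macrophage and monocyte sum it was 4.17 to 4.33 in WT and 2.76 to 3.31 in AMPK KO, so neither ratio overlapped between groups, and they moved in opposite directions. The part of macrophage, dendritic or other cells in the class II result was not tested.

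**Figure D3:**
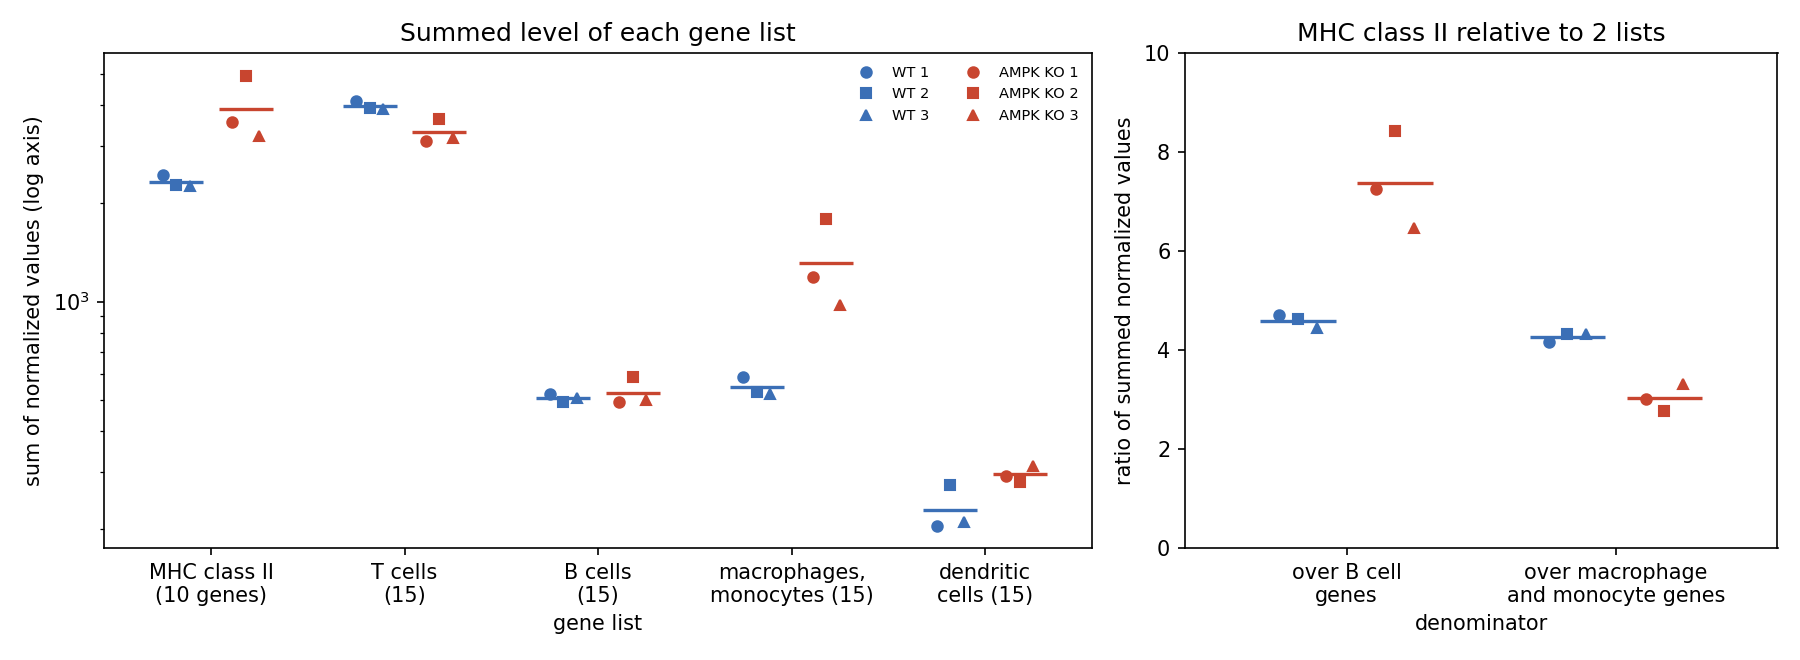
Left, summed normalized value (vertical log axis) of the class II genes and 4 marker lists in each library, with bars at group means; right, class II sum divided by the B cell or the macrophage and monocyte sum. Class II and macrophage sums are higher in all AMPK KO libraries, B cell sums overlap, and the ratios on the right shift in opposite directions.

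The genes most like class II across the 6 libraries were found by Pearson's r against the mean log2 value of *H2-Aa*, *H2-Ab1*, *H2-Eb1* and *Cd74*, over 7953 genes with a mean of at least 3. The libraries fall into 2 groups, so a gene that differs between them tends to have a high r, and 225 genes reached 0.9. The first 10 were *Basp1* (r = 0.998), *C1qa*, *Chchd2*, *Sugt1*, *Gm1821*, *Cd5l*, *Map1lc3b*, *Siglecg*, *Rcn3* and *Csf1r* (r = 0.988). *C1qa* and *Csf1r* are of the macrophage list, *Cd5l* encodes a protein secreted by macrophages, and *Siglecg* a receptor of B cells. The median r was 0.95 for 12 macrophage and monocyte genes, 0.29 for 14 B cell genes, 0.65 for 6 dendritic cell genes and -0.44 for 15 T cell genes. With group means removed, the medians were 0.81, 0.44, 0.28 and 0.70. AMPK KO sample 2 was the highest library for *C1qa*, *Csf1r* and *Cd79a*, and also the highest AMPK KO library for *Cd3e*.

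**Figure D4:**
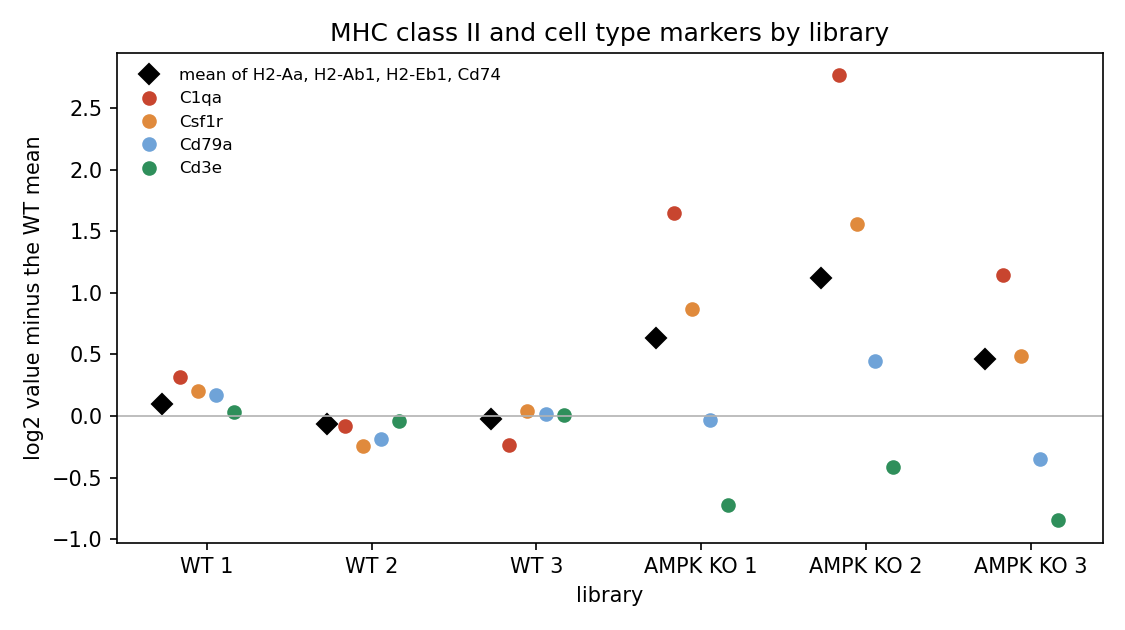
Log2 value minus the WT mean (vertical axis) in each library, for the mean of H2-Aa, H2-Ab1, H2-Eb1 and Cd74 (black diamonds) and for markers of macrophages (C1qa, Csf1r), B cells (Cd79a) and T cells (Cd3e). Class II, C1qa and Csf1r are above the WT libraries in every AMPK KO library, Cd79a lies on both sides of 0 and Cd3e is below 0.

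The calls depended on single libraries. Over 15 alternatives *H2-Aa* was called in 13, *Cd74* in 8, *H2-Eb1* in 6 and *H2-Ab1* in 5, and each kept its direction in all 15. 1 of the 15, a term for a split of the libraries, was built from the deviations of these same libraries and lowers the residual spread by construction. Without it the calls were 12, 7, 5 and 4 of 14. Without WT sample 1 or WT sample 3, 0 members were called in limma, and the adjusted p of *H2-Aa* rose to as much as 0.0763. Without WT sample 2 or AMPK KO sample 1, 1 member was called, and without AMPK KO sample 2 or 3, 4 were. With library scaling to reads outside *Rn45s*, 2 members, *H2-Aa* and *Cd74*, were called.

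**Figure D5:**
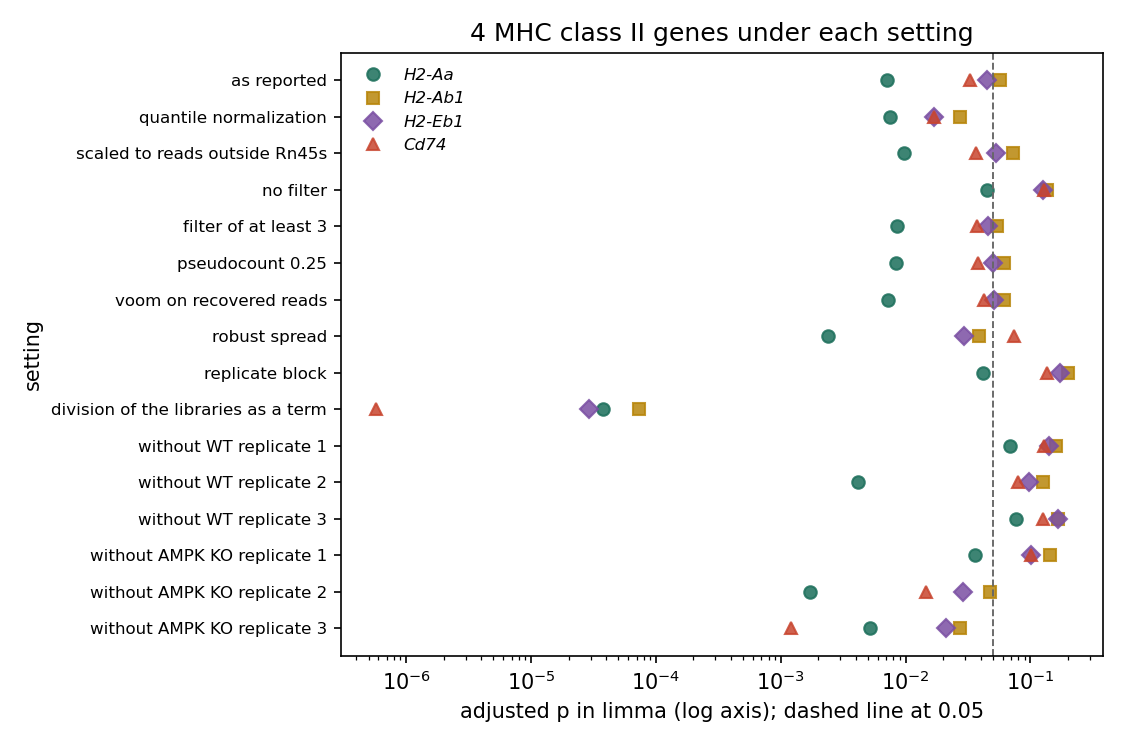
Adjusted p in limma (horizontal log axis; dashed line at 0.05) of H2-Aa, H2-Ab1, H2-Eb1 and Cd74 as reported and under 15 alternatives. H2-Aa is left of the line in 13 of the 15 alternatives, and the other genes in 5 to 8.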

How the data were processed

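RNA of CD4 T cells was read by QuantSeq 3′ libraries from 500 ng of total RNA, in 3 WT and 3 AMPK KO samples grouped by their labels. Values were deposited by the authors as log2 of the TMM- and CPM-normalized value plus 1. The submitters' processing notes name Bowtie2, bedtools and mm10; counting and strand are not given in the sources used here. The deposited log2 values were tested with lmFit and eBayes (trend) of limma 3.58.1 in R 4.3.3, with genotype only, two-sided, over 11279 genes with a mean of at least 1, with Benjamini-Hochberg adjustment at 0.05. Up to 100 reads, 100% of values were within 0.1 of whole reads; larger read numbers are approximate, since values are rounded. Sums used normalized values. The values of 1 list gene are not reported here. Named genes were the members, library facts, both genes of lists of 2, up to 4 called and the 2 most abundant genes of other lists, and the 10 most alike in profile. Members and lists were chosen with earlier results of these data known. Python 3.11.15 with pandas 2.3.3 was used. Alternatives were other normalizations, filters, a pseudocount of 0.25, voom on recovered reads, robust spread, a replicate block, a division term (libraries split by their deviations from the group means) and leaving out each library.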

Additional observations from a re-analysis of the deposited data

How the results depend on the processing

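As reported, 3 members were called higher and 637 of all tested genes in either direction. The members called were 1 with no filter, 1 with the replicate block and 5 with the division term, and 0 to 4 when a library was left out. No member was called lower under any of the 15 alternatives. All genes called were 308 with no filter, 102 with the replicate block, 1428 with the division term, and 127 (without WT 1) to 1243 (without AMPK KO 2) when a library was left out. Over the same settings the dendritic cell genes called higher were 1 with no filter, 1 with the replicate block, 4 with the division term and 1 to 3 without a library. The T cell genes called lower were 2, 1, 6 and 1 to 7 in that order, and those called higher 0 with no filter, the replicate block, scaling outside *Rn45s*, the pseudocount of 0.25 and voom, and 0 to 1 without a library. With the replicate block 0 transcription factors, 1 processing gene and 1 partner were called, with no filter 1 processing gene, and without a library 1 to 5 processing genes and 1 to 2 partners; these 3 lists were put through the alternatives after seeing the data. *Cd28* was called in 7 of the 15 alternatives, *Csf1r*, *Ctsz* and *Cd3e* in 9, and *Ifi30*, *Lgmn*, *Icam1* and *Cst3* in 10, *Cd3g* in 13 and *C1qb* in 14. Scaling outside *Rn45s* gave 708 calls, 32.3% of them higher against 45.1% as reported. Same-numbered samples deviated with r of -0.23, -0.53 and -0.31, so the numbers do not pair the samples, and no sample correlated best with its own number. Signs turned, in genes that never passed the test, for *H2-DMa* (-0.057 outside *Rn45s*, -0.24 to 0.17 when a library was left out, with -0.17 without WT 2), *Ciita* (-0.30 to 0.18 when a library was left out, with 0.095 without AMPK KO 2), *Cd72* (-0.021 outside *Rn45s*, -0.066 to 0.17 when a library was left out, with -0.035 without WT 2), *Cd79a* (-0.045 outside *Rn45s*, -0.19 to 0.21 when a library was left out, with -0.072 without WT 2) and *Kdr* (-0.082 with quantile normalization, -0.033 outside *Rn45s*, -0.17 with a pseudocount of 0.25, -0.92 with voom, -0.022 with the division term, and between -0.26 and 0.58 without a library, where -0.17, -0.26 and -0.16 were negative). The cause was not tested. *Ciita* has no value with a filter of at least 3, nor has *Kdr* there or in 2 of the 6 fits without a library (WT 2 and AMPK KO 2), where it was below the filter. With 3 samples a group, no permutation test reaches a p below 0.1, and *Ciita* and *H2-DMb2* are limited by their read numbers.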
